A study of Mus musculus with 6 samples.

Results

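Alveolar macrophages are the resident macrophages of the air spaces. They arise from fetal monocytes that enter the lung before birth, and GM-CSF and TGF-beta signals switch on the nuclear receptor PPAR-gamma, which sets up the uptake, storage and breakdown of surfactant lipid. The genes described here are 10 markers of that identity: Pparg, Fabp4, Cidec, Siglecf, Marco, Il18, Chil3, Ear2, Ear6 and Krt79. They were picked by name from the 31053 gene identifiers of the count tables, with earlier results of these data known. Each was found in the tables by its Ensembl identifier, and coordinates below are those of mm10.

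The study cultured lung cells of wild-type C57BL6 mouse fetuses taken at E17. The lungs were digested with liberase, frozen in 10% DMSO, and plated again on a thin coat of diluted Matrigel in a medium for blood stem and progenitor cells. The additions named for that medium are SCF, IL6, mTPO, Flt3, VEGF and FGF, GM-CSF and TGF-beta not being among them, and the wells were washed and refilled on day 3. The 3 suspension libraries hold the cells floating in the medium on days 4, 5 and 6, and the 3 adherent libraries hold the attached layer of the same days, released with accutase and sorted to enrich live cells carrying VE-cadherin, a junction protein of endothelial cells. How many fetuses were pooled, and whether the days are separate cultures, is not given in the sources used here, and a p-value here reflects no more than how these libraries scatter, which may be technical.

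Each library is a droplet (10x 3' v3) library for which the deposited table gives 1 read count per gene, with no cells to separate. Sense counts in genes totalled 43805361, 44199524 and 57784974 in suspension and 38885531, 36451255 and 40882433 in adherent libraries. Values are CPM, the counts of a gene relative to the library total after TMM scaling, and 3 counts, the floor used for a count of 0, were worth 0.0594 to 0.0756 CPM. A 3' kit counts transcript ends, and no value is corrected for transcript length, so levels are compared between libraries and not between genes. In sums over a whole library, fewer cells of a type and less RNA per cell cannot be told apart. The libraries differed widely in what else they held. Summed over a list of 14 general macrophage genes, the level was 25184, 23413 and 24311 CPM in suspension, against 2749.6, 3953 and 7765 CPM in adherent libraries. The summed level of 18 neutrophil genes was 28962, 37399 and 83734 CPM in suspension and 322, 1006 and 1283 CPM in adherent libraries. For 16 endothelial genes the sum was 90.3, 85.4 and 55.2 CPM in suspension and 937, 1903 and 766 CPM in adherent libraries.

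Between the fractions, 8 of the 9 identity genes that could be tested were higher in suspension and none was lower, by the quasi-likelihood test of edgeR, with p adjusted after Benjamini and Hochberg over 14912 genes and a threshold of 0.05. Of all genes tested, 27.1% were called higher and 29.7% lower. An unadjusted p under 0.05 was found for 8 identity genes, and for 9263 of the 14912 genes tested. For the same 8 every suspension library lay above every adherent one, as in 33.4% of all genes tested, and for none did the reverse hold, as in 34.4%. The exception was Marco, whose level on day 6 of the adherent fraction exceeded that of day 4 of the suspension fraction. The median log2 ratio of the 9 genes was 4.17, the value of Cidec itself, beside -0.00 over all genes tested. Siglecf and Cidec passed the filter on low counts only through the suspension libraries and so had to differ, and Ear6 passed in 1 of the 3 adherent libraries. These counts and the median therefore carry no weight of their own, and the values per library follow.

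Pparg (ENSMUSG00000000440, chr6:115360951-115490399, plus strand) encodes PPAR-gamma, the lipid-sensing transcription factor that alveolar macrophages need to develop. It had 39.5, 42.0 and 38.0 CPM on days 4, 5 and 6 in suspension, against 2.88, 5.34 and 10.6 CPM in adherent libraries. The fractions did not overlap, the suspension libraries were nearly level, and the adherent ones went up from day to day. The means were 39.9 ± 2.02 CPM in suspension and 6.29 ± 3.97 CPM in adherent libraries (SD, n = 3 each), a log2 ratio of 2.66 ± 0.45 (SE; edgeR adjusted p = 0.00341). Adipocytes also express Pparg. The summed level of 11 adipocyte genes was 430.4, 267 and 254 CPM in suspension and 60.6, 75.6 and 112 CPM in adherent libraries, most of it from Lpl, and the 3 that could be tested were all higher in suspension. Of the list, 2 genes were at 0 in all suspension libraries and 4 in all adherent ones, and Adipoq, which encodes adiponectin, had 0, 0.0477 and 0 CPM in suspension and 0 CPM in every adherent library. Their part in the Pparg difference was not tested.

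Fabp4 (ENSMUSG00000062515, chr3:10204088-10208576, minus strand) encodes a fatty acid carrier of the cytoplasm and is a target gene of PPAR-gamma. Its levels were 2024, 1789.7 and 2222 CPM in suspension and 229, 303 and 719 CPM in adherent libraries. All suspension libraries lay above all adherent ones, with no steady course in suspension and an increase on each adherent day. The log2 ratio was 2.27 ± 0.44 (SE; edgeR adjusted p = 0.00552) between means of 2012 ± 216 CPM in suspension and 417 ± 264 CPM in adherent libraries (SD, n = 3 each). Endothelial cells express Fabp4 too. The summed endothelial genes given above were lower in suspension than in adherent libraries, and their part in the Fabp4 values was not tested.

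Cidec (ENSMUSG00000030278, chr6:113424634-113435760, minus strand), which encodes a protein that enlarges lipid droplets, was near the limit of detection. It had 33, 14 and 15 counts in suspension, or 0.799, 0.334 and 0.297 CPM, and 3, 0 and 0 counts in adherent libraries, the first of these being 0.0692 CPM. The ratio of the summed counts, scaled for library size, was 19.5 with a 95% counting interval of 6.36 to 96.9. This interval, like the floors, covers counting error only, since the counts are reads and not molecules. The fitted log2 ratio was 4.17 ± 1.03 (SE; edgeR adjusted p = 0.0138) and depends on how the counts of 0 are treated.

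Siglecf (ENSMUSG00000039013, chr7:43351341-43359531, plus strand) encodes a sialic acid binding receptor used to gate mouse alveolar macrophages. Its counts were low: 118, 130 and 93 in suspension against 1, 5 and 2 in adherent libraries. These counts correspond to 2.86, 3.10 and 1.84 CPM in suspension and 0.0231, 0.126 and 0.0466 CPM in adherent libraries. The fractions did not overlap, and 2 adherent libraries were under the floor of 3 counts. The log2 ratio was 5.28 ± 0.57 (SE; edgeR adjusted p = 0.000856), and the ratio of summed counts was 40.1 with a 95% counting interval of 20.1 to 93.7. Eosinophils carry the same receptor. Prg2, an eosinophil granule protein gene, had 16.4, 3.07 and 0.0396 CPM in suspension and 0, 0.0252 and 0 CPM in adherent libraries, while Epx, the eosinophil peroxidase gene, had 0.170, 0.143 and 0 CPM in suspension and 0 CPM in every adherent library. Summed over 8 eosinophil genes, of which 3 were at 0 in all adherent libraries, the level was 24.0, 9.86 and 5.23 CPM in suspension and 0.0461, 0.151 and 0.373 CPM in adherent libraries. That sum went down on both steps between days in suspension, mostly through Prg2, while Siglecf was highest on day 5. Of the 2 eosinophil genes that could be tested, 1 climbed and 1 went down on both steps. The part of eosinophil genes in the Siglecf difference was not tested.

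Marco (ENSMUSG00000026390, chr1:120474538-120505024, minus strand) encodes a class A scavenger receptor that binds bacteria and inhaled particles. Its levels were 53.8, 103 and 244 CPM in suspension and 5.21, 12 and 93.7 CPM in adherent libraries. Both fractions climbed from day to day, and the adherent library of day 6 stood between the suspension libraries of days 4 and 5. The log2 ratio was 1.86 ± 1.12 (SE; edgeR adjusted p = 0.197), so the fractions did not differ beyond the spread between libraries in this test. On each day the suspension library was nonetheless the higher, by ratios of 10.3, 8.57 and 2.61. With the day of collection as a block, which sets each suspension library against the adherent library of its own day, the log2 ratio was 2.61 ± 0.46 (SE; edgeR adjusted p = 0.00954). Left without the day 6 adherent library, the fit gave 3.96 (adjusted p = 0.00948).

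Il18 (ENSMUSG00000039217, chr9:50554827-50581840, plus strand) encodes the precursor of interleukin 18, which caspase 1 cleaves in inflammasomes. It had 241, 216 and 185 CPM in suspension, against 10.8, 21.9 and 49.2 CPM in adherent libraries. Levels went down over the days in suspension and up in the adherent fraction, with no overlap. The log2 ratio was 2.97 ± 0.54 (SE; edgeR adjusted p = 0.00445).

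Chil3 (ENSMUSG00000040809, chr3:106147554-106167564, minus strand) encodes Ym1, a secreted chitinase-like protein without enzyme activity that alveolar macrophages and maturing neutrophils make. Its levels were 1405, 2154 and 3457 CPM in suspension and 17.3, 30.1 and 109 CPM in adherent libraries. Both fractions climbed each day without meeting. The log2 ratio was 5.49 ± 0.85 (SE; edgeR adjusted p = 0.00246). The neutrophil genes S100a8 and S100a9, which encode the subunits of calprotectin, moved with it. S100a9 had 11244, 14534 and 37215 CPM in suspension and 99.7, 351 and 496 CPM in adherent libraries. All 18 neutrophil genes were called higher in suspension, with a median log2 ratio of 5.90, and 14 of them climbed on both steps between days in suspension, as 24.1% of all genes tested did. The counts of Chil3 are set beside theirs further on.

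Ear2 (ENSMUSG00000072596, chr14:44102654-44103534, plus strand) and Ear6 (ENSMUSG00000062148, chr14:51853699-51854643, plus strand) encode secreted ribonucleases of the eosinophil-associated family, of which alveolar macrophages express several. Ear2 had 119.7, 61.0 and 19.2 CPM in suspension, against 1.89, 3.68 and 1.72 CPM in adherent libraries. Ear6 had 5.35, 3.96 and 1.29 CPM in suspension and 0.138, 0.327 and 0.0233 CPM in adherent libraries. Both were highest on day 4 and lowest on day 6 in suspension, without overlap of the fractions. In the adherent fraction both were highest on day 5 and lowest on day 6. For Ear6 that order rests on 6, 13 and 1 counts, the last under the floor of 3 counts. The log2 ratios were 4.78 ± 0.75 for Ear2 (SE; edgeR adjusted p = 0.0026) and 4.43 ± 0.88 for Ear6 (SE; edgeR adjusted p = 0.00622). The sum over eosinophil genes given beside Siglecf fell over the same suspension days, mostly through Prg2. Of the 2 eosinophil genes tested, 1 climbed and 1 went down on both steps there. The part of eosinophil genes in the Ear2 and Ear6 values was not tested.

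The promoter windows of Ear2 and Ear6, genes of 1 family, are shown. They hold 250 bases before and 50 after the start site in RefSeq on GRCm38.p6, the assembly of mm10. Relatives can share such sequence whatever their levels, and a link between the windows and the levels was not tested. Capitals mark every run of at least 12 identical bases in the alignment of the 2 windows. The Ear2 window lies at chr14:44102404-44102703 and the Ear6 window at chr14:51853518-51853817, both on the plus strand.
Ear2: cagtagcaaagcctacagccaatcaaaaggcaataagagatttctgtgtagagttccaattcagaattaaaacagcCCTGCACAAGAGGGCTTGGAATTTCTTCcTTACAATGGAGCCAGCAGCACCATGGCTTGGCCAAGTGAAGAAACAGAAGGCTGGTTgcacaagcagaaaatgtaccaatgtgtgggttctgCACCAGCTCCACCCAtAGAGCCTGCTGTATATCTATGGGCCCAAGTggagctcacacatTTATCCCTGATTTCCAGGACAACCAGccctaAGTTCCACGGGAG
Ear6: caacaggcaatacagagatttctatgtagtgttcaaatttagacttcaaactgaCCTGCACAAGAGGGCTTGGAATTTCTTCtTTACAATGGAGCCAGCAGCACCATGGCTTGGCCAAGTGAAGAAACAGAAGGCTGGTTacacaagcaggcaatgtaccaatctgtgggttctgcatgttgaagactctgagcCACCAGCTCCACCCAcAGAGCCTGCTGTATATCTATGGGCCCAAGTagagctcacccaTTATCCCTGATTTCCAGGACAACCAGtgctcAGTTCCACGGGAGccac
The windows held 6 such runs with 169 bases in all, the longest of 57 bases, and were identical at 256 of 324 aligned positions (79.0%). Among the other 35 pairs of windows from the 9 identity genes found in the promoter table, identity ranged from 34.6 to 48.3%. The windows of Marco and Chil3, which are of different families and each climbed in both fractions, are shown as well. Their windows lie at chr1:120504975-120505274 and chr3:106167515-106167814, both on the minus strand and printed 5' to 3' along it.
Marco: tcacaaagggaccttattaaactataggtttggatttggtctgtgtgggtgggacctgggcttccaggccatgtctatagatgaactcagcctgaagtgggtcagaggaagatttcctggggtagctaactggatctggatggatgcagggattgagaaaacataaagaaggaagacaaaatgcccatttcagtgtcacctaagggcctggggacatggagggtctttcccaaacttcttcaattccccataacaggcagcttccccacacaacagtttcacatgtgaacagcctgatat
Chil3: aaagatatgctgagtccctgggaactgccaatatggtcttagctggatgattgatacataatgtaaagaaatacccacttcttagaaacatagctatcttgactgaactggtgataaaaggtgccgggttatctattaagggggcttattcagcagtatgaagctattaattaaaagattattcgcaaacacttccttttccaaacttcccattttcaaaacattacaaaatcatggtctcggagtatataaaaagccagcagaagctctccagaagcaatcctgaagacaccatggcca
These windows were identical at 155 of 329 aligned positions (47.1%) and held no run of 12 bases, so nothing in them is in capitals. Letters of known binding motifs were searched on both strands. The PU.1 core GAGGAAGT, found in 3.2% of 32851 promoters, the C/EBP palindrome TTGCGCAA (0.183%), the PPAR-RXR repeat of AGGTCA spaced by 1 base (0.0396%) and the BHLHE40/41 E-box TCACGTGA (0.974%) were in no window of an identity gene. The short PPAR-RXR element AGGTCA is contained in the repeat and was found in 16.3% of promoters. It was in the windows of 2 start sites of Pparg and in that of Ear6. In the Ear6 window it lay on the minus strand, across the left end of the first run of capitals. Its leftmost base as printed, the last letter on the minus strand, was 199 bases before the start site.

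The close relation of the Ear genes also bears on how reads were counted. Of all stretches of 50 bases in the longest Ear2 transcript of GENCODE M21, 41.5% also occurred in a transcript of another gene, most often Ear10, as did 96 of the last 300, the end that a 3' kit reads. For Ear6 the share was 1.07%. For Chil3 it was 29.4%, most often shared with Chil4, but none of its last 300 was shared, and for Siglecf it was 0.235%. The other identity genes shared none. Reads that fit several places are not in the gene counts, so the Ear2 level is uncertain in all libraries, and its paralogue Ear10 was at 0 in all 6.

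Krt79 (ENSMUSG00000061397, chr15:101929332-101940324, minus strand), a keratin gene that is found among alveolar macrophage transcripts in adult mice, had 1, 0 and 0 counts in suspension and 1, 0 and 1 counts in adherent libraries. No library exceeded the floor of 3 counts, so no fold is given. Its levels were not detectable at this depth in either fraction.

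**Figure D1:**
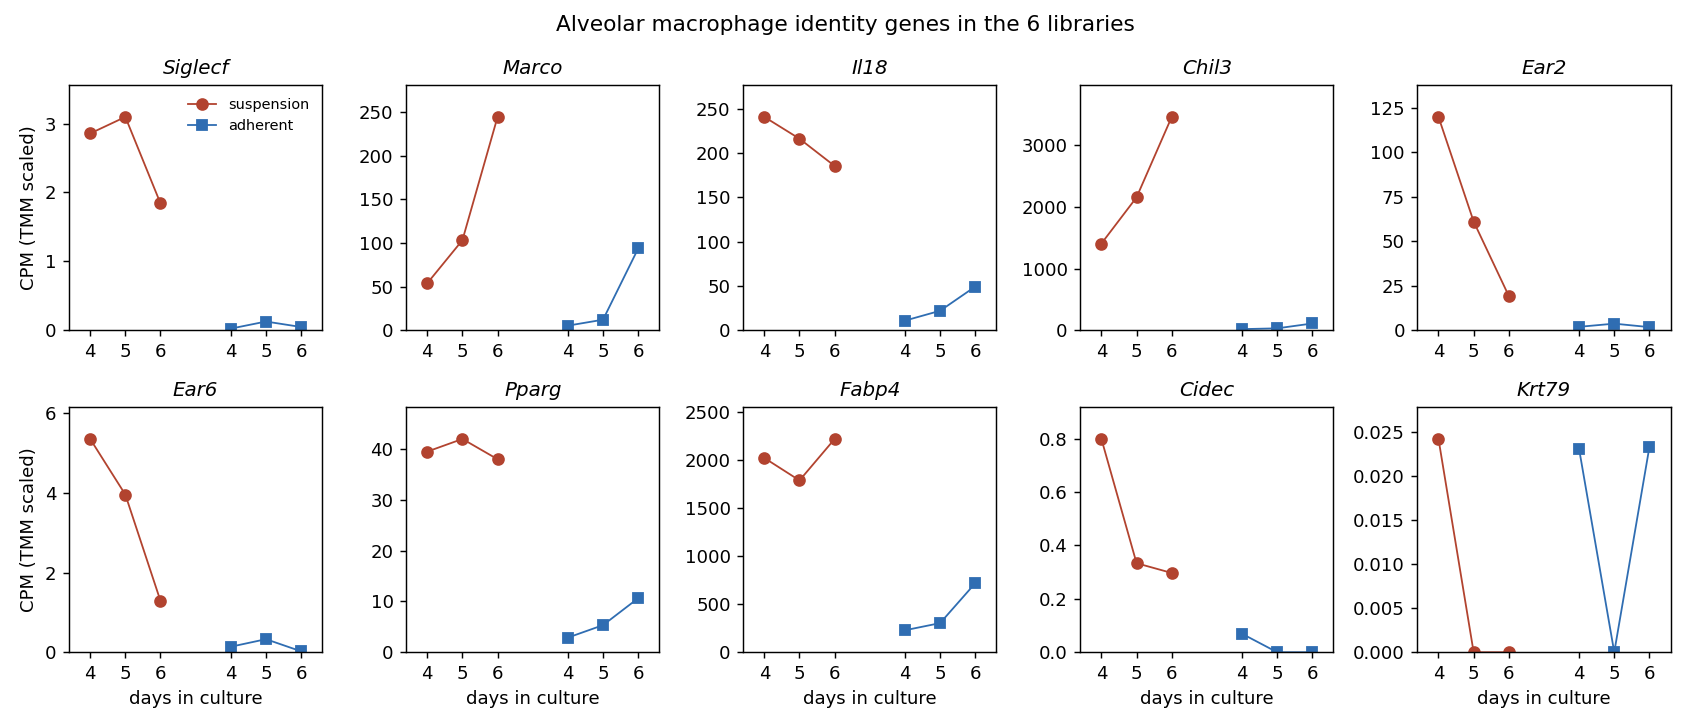
Level of each identity gene in CPM (linear axes from 0, a scale for each panel) against days in culture, with suspension libraries as circles on the left and adherent libraries as squares on the right, 1 library per point. In suspension Marco and Chil3 are highest on day 6 and Ear2 and Ear6 on day 4, Pparg, Fabp4, Il18, Marco and Chil3 climb on each adherent day, and Krt79 is at 1 count or 0 throughout.

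The course over days was fitted as a slope per day within each fraction, with 2 residual degrees of freedom. In adherent libraries 5 of the 9 genes rose with the day and none fell, where 7.75% of all genes tested rose and 3.52% fell. Marco rose by 2.12 ± 0.22 per day on the log2 scale (SE; edgeR adjusted p = 0.0107), Chil3 by 1.33 ± 0.14 (0.0107), Il18 by 1.09 ± 0.06 (0.00882), Pparg by 0.94 ± 0.08 (0.00967) and Fabp4 by 0.83 ± 0.13 (0.0228). The slopes of Siglecf at 0.28, Ear2 at -0.06 and Ear6 at -0.62 did not pass, with adjusted p of 0.832, 0.926 and 0.635. General macrophage genes rose over the same days in the same libraries: 12 of the 14 passed, with a median slope of 0.63 per day, and Lyz2, the lysozyme gene, had 1526, 2189.6 and 4181 CPM. When libraries were scaled to the summed counts of those 14 genes, 2 identity genes still passed as rising (Marco, slope 1.35, and Chil3, slope 0.58) and 2 as falling (Ear2 and Cidec, the second of them on 3, 0 and 0 counts), where 0.932% of all genes tested were called rising and 69.3% falling, with a median slope of -0.70. Once day 6 of the adherent fraction was left out, Marco and Il18 passed, with slopes of 1.21 and 1.02. The others missed the threshold, Pparg with a slope of 0.89 (adjusted p = 0.0748), Chil3 with 0.81 (0.0677) and Fabp4 with 0.41 (0.299). Once any suspension library, which shares the estimate of spread, was left out, Fabp4 missed the threshold at 0.0563 to 0.0588.

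In suspension 2 genes climbed on both steps between days (Marco and Chil3, as did 24.1% of all genes tested) and 4 went down on both (Il18, Ear2, Ear6 and Cidec, as did 24.9%). No identity gene passed the test of the slope there, beside 0.0939% of all genes rising and 0.402% falling. An unadjusted p under 0.05 was found for 4 of the 9, and for 2457 of the 14912 genes tested. Marco had a slope of 1.09 ± 0.21 (SE; edgeR adjusted p = 0.107), Chil3 of 0.65 ± 0.14 (0.129), Ear2 of -1.32 ± 0.24 (0.102) and Il18 of -0.19 ± 0.06 (0.216). In DESeq2's Wald test the first 3 of these passed, with adjusted p of 5.22e-05, 0.000453 and 5.22e-05, where 1.27% of all genes rose and 4.11% fell. They passed in edgeR too when any 1 adherent library was left out. Calls over all genes tested went up as well in those fits. There 168 to 176 genes rose and 341 to 371 fell, against 14 and 60 with all libraries. When any suspension library was left out, none of Marco, Chil3 and Ear2 passed in edgeR (adjusted p of 0.135 to 0.999). Pparg and Fabp4 had slopes of -0.03 and 0.07, with adjusted p of 0.889 and 0.846. A slope common to both fractions was called for no identity gene in edgeR, beside 0.0134% of all genes called rising. An unadjusted p under 0.05 was found there for 2 of the 9, and for 3036 of all 14912 genes tested. DESeq2 called Marco and Chil3 rising in this trend, where 4.96% of all genes were called rising.

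The difference between the slopes, suspension minus adherent, was called for 2 of the 9 genes, both negative, where 0.463% of all genes tested were called negative and 0.0536% positive. It was -1.28 ± 0.08 per day on the log2 scale for Il18 and -0.97 ± 0.11 for Pparg (SE; edgeR adjusted p = 0.0485 for each). Il18 was thus lower on each later day in suspension while it climbed in the adherent fraction, and Pparg stayed level in suspension. Both calls were close to the threshold. Leaving out any suspension library ended both (adjusted p of 0.0789 to 0.7 for Il18 and 0.0982 to 0.7 for Pparg), and leaving out the adherent library of day 4 or day 6 ended that of Pparg (0.0733 and 0.106). Scaled to the general macrophage genes, the differences were -0.51 for Il18 (adjusted p = 0.0538) and -0.19 for Pparg (0.519).

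**Figure D2:**
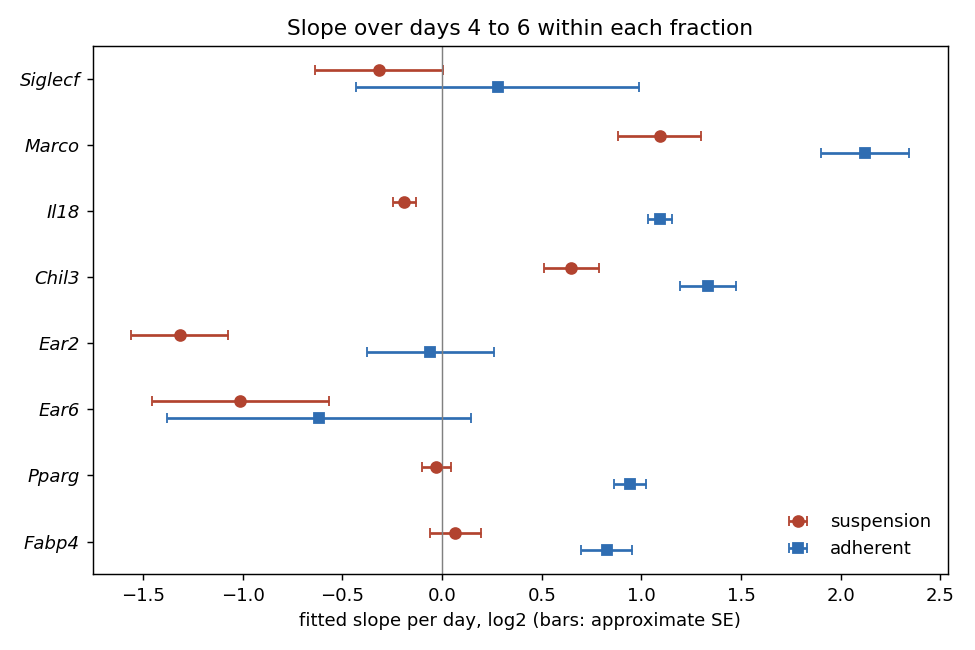
Fitted slope per day on the log2 scale for 8 identity genes, with suspension as circles above adherent as squares and bars for the approximate SE. Il18 and Pparg lie below or near 0 in suspension and near 1 in adherent libraries, and Marco and Chil3 lie above 0 in both, while Cidec (0 counts in 2 adherent libraries) and Krt79 are left out.

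Set beside the general macrophage genes of the same library, the identity genes separated into several patterns. This ratio is the count of a gene per 1000 counts of the 14 genes, and its test is an exact two-sided permutation test over the 6 libraries, whose smallest p is 0.1. Several of the 14, such as Lyz2, Itgam, Tyrobp, Fcer1g and Cybb, are also made by neutrophils. Fabp4 stood at 80.4, 76.4 and 91.4 per 1000 in suspension and at 83.3, 76.8 and 92.6 per 1000 in adherent libraries. The fractions overlapped throughout (82.7 ± 7.75 in suspension and 84.2 ± 7.98 in adherent libraries, SD, n = 3 each, exact permutation p = 0.7). Marco, at 2.14, 4.41 and 10.1 per 1000 in suspension and 1.90, 3.05 and 12.1 per 1000 in adherent libraries, followed the day in each fraction with overlap (exact permutation p = 1). In the fit scaled to these genes the log2 ratio was -0.03 for Fabp4 and -0.04 for Marco, where the median of all genes tested was -2.59 and 1.74% of them were called higher and 88.5% lower in suspension.

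Chil3 kept a wide gap, with 55.8, 92.0 and 142 per 1000 in suspension and 6.28, 7.63 and 14 per 1000 in adherent libraries (exact permutation p = 0.1). Il18 had 9.57, 9.24 and 7.63 per 1000 in suspension and 3.94, 5.55 and 6.34 per 1000 in adherent libraries (exact permutation p = 0.1). Pparg had 1.57, 1.80 and 1.56 per 1000 in suspension and 1.05, 1.35 and 1.37 per 1000 in adherent libraries (exact permutation p = 0.1). For Il18 and Pparg the gap between the fractions narrowed toward day 6. Siglecf had 0.113, 0.132 and 0.0757 per 1000 in suspension, against 0.00839, 0.0319 and 0.006 per 1000 in adherent libraries (exact permutation p = 0.1). Ear2 overlapped, with 4.75, 2.61 and 0.791 per 1000 in suspension and 0.688, 0.930 and 0.222 per 1000 in adherent libraries (exact permutation p = 0.2), as did Ear6, and neither overlapped once day 6 of suspension or day 5 of the adherent fraction was left out. In all, 4 identity genes did not overlap and were higher in suspension, beside 2.5% of all genes tested, and none was lower, beside 89.5%. Siglecf, counted among the 4, passed the filter only through suspension and so carries no weight here.

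The counts of Chil3 were also set beside those of the 18 neutrophil genes, a comparison chosen after the values were seen. There it stood at 48.5, 57.6 and 41.3 per 1000 in suspension and 53.6, 30.0 and 85.0 per 1000 in adherent libraries, with overlap (exact permutation p = 0.8). The overlap was not particular to Chil3. Siglecf overlapped with the same exact permutation p of 0.8, and so did Ear2, Ear6, Cidec and Krt79. Per 1000 neutrophil counts, Fabp4, Pparg, Il18 and Marco did not overlap and were lower in suspension, as were 97.9% of all genes tested, and none was higher, as were 0.201%.

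**Figure D3:**
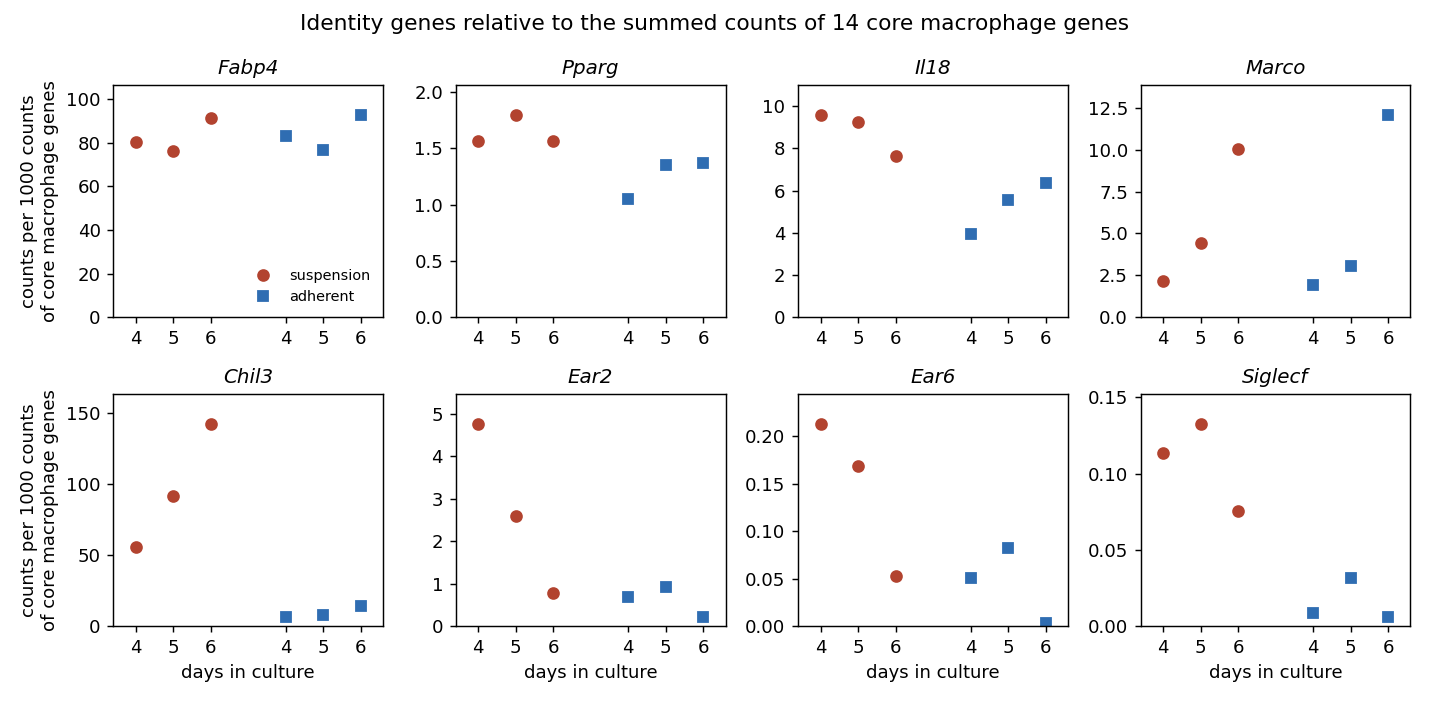
Counts of 8 identity genes per 1000 summed counts of 14 general macrophage genes (linear axes from 0), by days in culture, with suspension libraries as circles on the left and adherent libraries as squares on the right. Fabp4 lies between 76.4 and 92.6 in all 6 libraries and Marco overlaps, while Chil3, Pparg, Il18 and Siglecf are higher in every suspension library. Siglecf passed the filter on low counts only through suspension.

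The inputs that induce alveolar macrophage identity were described with a list of 18 genes of GM-CSF and TGF-beta signalling. Of 17 tested, 9 were higher in suspension and 5 lower, with a median log2 ratio of 0.37. Over all genes tested 27.1% were called higher and 29.7% lower, shares that stand beside this and every list count below. The receptor chains for GM-CSF were higher in suspension too. Csf2ra, the alpha chain, had 189, 166 and 148 CPM in suspension and 17.8, 25.7 and 39.7 CPM in adherent libraries, a log2 ratio of 2.59 ± 0.30 (SE; edgeR adjusted p = 0.00103). Its slopes differed in the manner of Pparg, by -0.75 per day (edgeR adjusted p = 0.0485), and it was named after its values were seen, as were Csf2 and Csf2rb. Csf2rb, the shared beta chain, had a log2 ratio of 2.90 (adjusted p = 0.00098). The cytokine gene itself, Csf2, was not tested, with 0.194, 0.0477 and 0.0792 CPM in suspension and 0.969, 0.0504 and 0.0233 CPM in adherent libraries. By the rule for named genes, Tgfb1, the ligand, was higher in suspension by 1.35 (adjusted p = 0.0012) and its receptor Tgfbr2 by 0.67 (0.0483), while the kinase gene Jak2 was lower, at -1.72 (0.000626), as was Smad4, which encodes a partner of the TGF-beta signal carriers, at -0.73 (0.00259).

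Among 17 tested regulators of alveolar macrophages 10 were higher and 2 lower in suspension, with a median log2 ratio of 0.95. Over days in adherent libraries 10 rose, where 7.75% of all genes tested did. Spi1, which encodes the myeloid factor PU.1, had 394, 413 and 471 CPM in suspension and 35.2, 57.2 and 110.1 CPM in adherent libraries, and Cebpb had a log2 ratio of 0.84 (edgeR adjusted p = 0.00621). The repressor genes L3mbtl3 and Bach2 were lower, at -0.82 (adjusted p = 0.00207) and -1.47 (0.0211). Of 20 tested partners and targets of PPAR-gamma 11 were higher and 3 lower, with a median of 0.64. Fabp5, another fatty acid carrier, had 8919, 8284 and 8619.8 CPM in suspension and 1559, 1820.1 and 3738 CPM in adherent libraries. Plin2, which coats lipid droplets, was higher by 1.5 (adjusted p = 0.00712), while Scd1, a fatty acid desaturase gene, and Angptl4, an inhibitor of lipoprotein lipase, were lower, at -1.82 (0.0173) and -1.43 (0.00351). The lipid droplet list had 11 of 15 higher and 1 lower, with a median of 1.47. In it Soat1, which esterifies cholesterol, was higher by 1.74 (adjusted p = 0.000691), and G0s2, an inhibitor of fat breakdown, was lower at -1.77 (0.0298).

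In the pathway of Il18, 15 of 17 genes were higher in suspension and 1 lower, with a median of 2.12. Over days in adherent libraries 10 rose, where 7.75% of all genes tested did. Pycard, the inflammasome adaptor, had 855, 933 and 1001 CPM in suspension and 103, 181 and 334 CPM in adherent libraries, and its slopes differed by -0.73 per day (edgeR adjusted p = 0.0485). Myd88, the adaptor below the receptor, was higher by 0.91 (adjusted p = 0.00743), and Il33, another cytokine of the family, was lower at -3.42 (0.0111). Among scavenger receptors other than Marco, 8 of 13 were higher and 3 lower, with a median of 0.69. The mannose receptor gene Mrc1 was higher by 1.80 (adjusted p = 0.0109) and Stab1 by 0.69 (0.0393), and Colec12 and Scara3 were lower, at -1.38 (0.0167) and -4.39 (0.000401).

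A further list of 30 alveolar macrophage genes, other than the 10, had 24 of 26 tested members higher in suspension and none lower, with a median of 2.23 that was close to the 2.19 of the general macrophage list, in which all 14 were higher. Ctsd, a lysosomal protease gene, had 9203, 9591 and 7952 CPM in suspension and 1317, 1862 and 3102 CPM in adherent libraries. Car4, which marks adult alveolar macrophages and was named after its values were seen, had 1.5, 0.334 and 0.0396 CPM in suspension and 0, 0.0756 and 0 CPM in adherent libraries. Of 19 interstitial macrophage genes 12 were higher and 1 lower, with a median of 1.19. The complement gene C1qa had 1219, 966 and 1120.0 CPM in suspension, against 440.3, 410.1 and 738 CPM in adherent libraries, and C1qc was higher by 1.19 (edgeR adjusted p = 0.0194). Lyve1, a receptor of lymphatic endothelium and of a subset of macrophages, was lower at -3.81 (0.00611). Of 14 monocyte genes 9 were higher and 3 lower, with a median of 2.94, Ly6c2 having 85.1, 114 and 277 CPM in suspension and 0.900, 2.27 and 4.52 CPM in adherent libraries. The haptoglobin gene Hp was higher by 3.03 (adjusted p = 0.00909), and Vcan and Ace were lower, at -1.73 (0.00418) and -3.07 (0.00616).

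**Figure D4:**
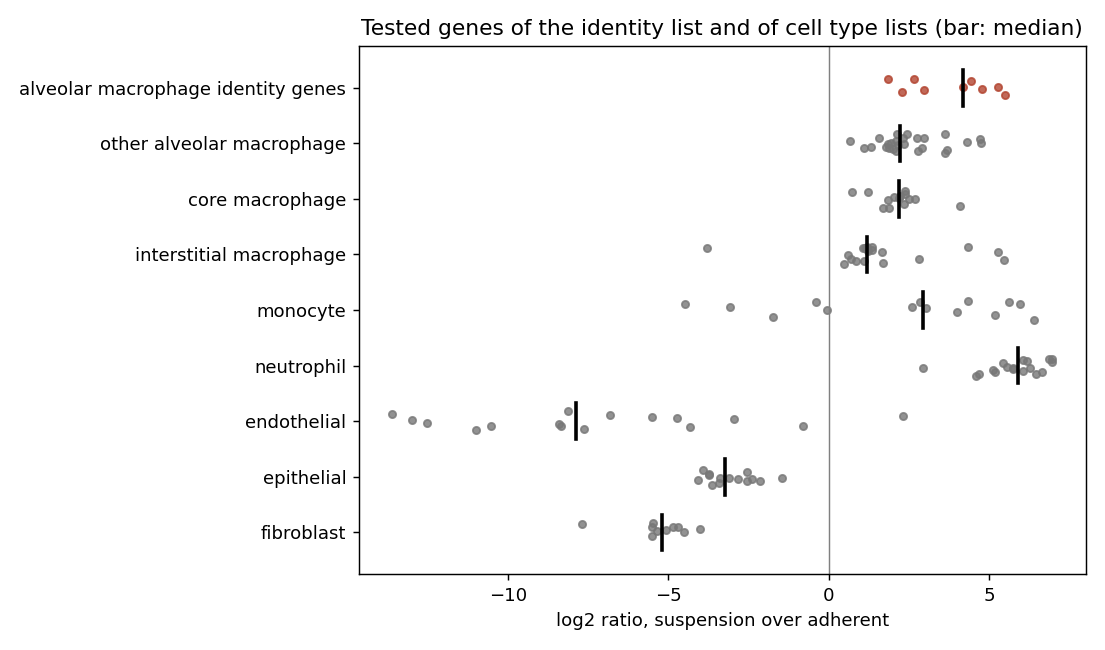
Log2 ratio of suspension over adherent libraries for each tested gene of the identity list and of 8 cell type lists (1 point per gene, spread vertically for legibility, with a black bar at the median). The identity genes lie between 1.86 and 5.49 with CPM on the TMM scale (Marco and Fabp4 were at -0.04 and -0.03 when scaled to the general macrophage list), the medians are 2.23 for other alveolar macrophage genes, 2.19 for general macrophage genes, 5.90 for neutrophil genes and -7.87 for endothelial genes.

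Markers of the structural cells of the lung ran the other way. Only the attached layer is described as sorted for VE-cadherin, so attachment and the sort cannot be told apart in the contrast of fractions. Of 14 epithelial genes 7 were lower and none higher in suspension, Krt19 and Krt8 among them at -3.75 (edgeR adjusted p = 0.0181) and -3.72 (0.0418). Of 16 endothelial genes 14 were lower, Cldn5 and Egfl7 at -12.5 (adjusted p = 0.000347) and -4.32 (0.00071), and only Cd36, which is also a lipid scavenger receptor of macrophages and a PPAR-gamma target, was higher, by 2.32 (0.000735). All 10 fibroblast genes were lower, Col1a2 at -5.36 (0.00137) and Col1a1 at -5.50 (0.00112). All 3 tested adipocyte genes were higher, Lpl by 1.99 (0.00265) and Lipe by 0.78 (0.04), both of which macrophages express as well. Of the eosinophil list only Gata1, at 4.78 (0.00189), and Alox15, at 0 counts in the adherent fraction, could be tested. The 8 tested erythroid genes were higher, Tfrc by 1.53 (0.00309) and Hbb-bs by 8.28 (0.00326), the last with levels from 9.44 to 108 CPM in suspension.

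Within the families of the identity genes, relatives did not always share the pattern. Among PPAR genes, Ppard had 16.9, 21.4 and 18.6 CPM in suspension and 15, 14 and 14.3 CPM in adherent libraries (log2 ratio 0.39, edgeR adjusted p = 0.0329), and Ppara was lower, at -5.15 (0.00301) with under 1 CPM in every library. Ppara passed the filter on low counts only through the adherent libraries, so its difference carries no weight. Of fatty acid carriers, Fabp7 was higher by 2.75 (adjusted p = 0.00434) and Fabp3 lower at -0.97 (0.037). All 7 tested Siglec genes were higher, Cd33 with 113, 120.4 and 147 CPM in suspension and 8.47, 13.8 and 21.1 CPM in adherent libraries, Siglece by 4.87 (adjusted p = 0.00124), Mag by 3.02 (0.00111), Cd22 by 2.66 (0.00222), Siglec1 by 2.56 (0.00467) and Siglecg by 1.48 (0.0129). Chil1 climbed over days in suspension, with 18.6, 31.3 and 83.4 CPM there (slope 1.08, adjusted p = 0.0379) and 0.738, 0.730 and 0.722 CPM in adherent libraries. Chil5 was higher by 5.39 (0.0055). Of the ribonuclease family, Rnase6 was higher by 4.10 (adjusted p = 0.000585), while Rnase4 at -0.38 (0.158), Ang at 0.34 (0.144) and Rnase2b at 0.998 (0.306) did not pass. Cideb was higher by 1.47 (0.0293). The keratin genes near Krt79 that reached 1 CPM were either lower in suspension (Krt8, above, and Krt7 at -3.92, 0.0231) or did not pass (Krt18 at -3.39, 0.0602, and Krt80 at 0.74, 0.166), and Krt76 was not tested.

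Genes with the most similar profile over the 6 libraries were sought among those with a mean of at least 20 CPM, by the root mean square difference of centred log2(CPM + 0.5) values. With 3 libraries in each fraction this is a description, and the pseudocount flattens the profiles of Siglecf and Ear6. Pparg was closest to Fcgr4, an Fc receptor gene of myeloid cells, at 0.0886, ahead of Pik3r5 and Wdfy4. Fabp4 was closest to Arl11 at 0.0938, ahead of Tyrobp, an adaptor of myeloid receptors, at 0.113 and Casp1 at 0.121. Il18 was closest to Sh2d1b1 at 0.175, ahead of Atp6v0d2, a proton pump subunit gene, at 0.198 and Acp5. Chil3 was closest to Ly6c2 at 0.350, ahead of Ifitm6 and S100a9, and Marco to the acute phase gene Saa3 at 0.618, ahead of Hp and Sorl1. Ear2 was closest to Plet1, an epithelial and alveolar macrophage surface protein gene, at 0.496, ahead of Dmkn and Clec5a. Siglecf was closest to Nabp1 at 0.155, ahead of Cd9 and Havcr2, and Ear6 to Cd9 at 0.308, ahead of Rgcc and Nabp1. Plet1 itself had 219, 209 and 85.6 CPM in suspension and 4.57, 11.4 and 3.21 CPM in adherent libraries. Among the identity genes themselves, Pparg and Fabp4 were the closest pair at 0.231, followed by Pparg and Il18 at 0.275, and the farthest were Chil3 and Ear6 and Marco and Ear2, at 2.10 each.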

How the data were processed

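bcl2fastq, Cell Ranger and STARsolo are the tools, and mm10 the build, in the submitters' processing notes, without versions, annotation or settings. Each deposited table holds whole-number counts of reads in genes, summed over a library and not corrected for molecular identifiers, with 4 summary lines that were left out (37.6 to 39.0% of suspension reads and 48.8 to 55.5% of adherent reads, including reads that map to several places). The sense column was used. GENCODE M21 gave symbols for 31011 of 31053 identifiers, and 35 symbols were shared by several.

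Genes passing edgeR's filterByExpr (14912 of 22019 with any count, at a cutoff of 0.236 CPM) were tested with edgeR 4.0.16 (limma 3.58.1, R 4.3.3): TMM scaling, quasi-likelihood tests, Benjamini-Hochberg adjustment and a threshold of 0.05. The fraction contrast had 4 residual degrees of freedom, the common trend 3, and the slopes and their difference 2. The ± after a log2 value is an approximate SE, its size divided by the square root of F. The steps were tested on simulated data.

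The identity genes and the 24 other gene lists were chosen with earlier results of these data known. The rule named the identity genes, the 2 called members of every other list with the highest mean CPM in each direction (where none was called, the member with the highest mean), family members of at least 1 CPM in 1 library, and the 3 nearest profiles of each identity gene with a mean of at least 1 CPM. Other names were chosen after their values were seen.

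Suspension and adherent libraries were paired by the collection day in the labels. Deviations from the fraction means correlated across genes, which are not independent replicates, at 0.338, 0.14 and 0.282 within a day and at -0.305 to 0.0134 between days. Alternatives were reads on either strand, DESeq2 1.42.0 size factors and its Wald test, no filter, at least 10 CPM in 3 libraries, globin and mitochondrial genes left out, each library left out, the day as a block, a test against a 2-fold difference and scaling to general macrophage genes. Scaling the slopes that way, and the ratio to neutrophil genes, were added after the values were seen.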

Additional observations from a re-analysis of the deposited data

Results flagged for a closer look

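The course over days differed between the fractions for Pparg and Il18 in edgeR's test of the slope difference, at an adjusted p of 0.0485 for each. Neither call held with any suspension library left out, without globin and mitochondrial genes, or scaled to general macrophage genes. Suspension minus adherent, it was -0.97 per day on the log2 scale for Pparg and -1.28 for Il18, from slopes of -0.03 in suspension and 0.94 in adherent libraries for Pparg, and of -0.19 in suspension and 1.09 in adherent libraries for Il18.

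Antisense reads, which no comparison uses, exceeded 3 counts in at least 1 library for 7 identity genes. Their highest counts in 1 library were 612 for Chil3, 121 for Fabp4, 38 for Marco and 13 for Siglecf on day 6 in suspension, 32 for Pparg on day 5 in suspension, and 28 for Ear2 and 21 for Il18 on day 4 in suspension. Over all libraries they came to 5.16% of the sense counts of Siglecf, with 14% in the library where the share was highest, and to 0.1 to 1.21% of those of the other 6 genes.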

How the results depend on the processing

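With each library left out, 8 to 9 of the 9 tested identity genes were called higher in suspension, among them Siglecf and Cidec, whose calls carry no weight here since they passed the filter only through suspension. With the day as a block Marco joined them (9 called, Marco at 2.61), which changed no other call. With at least 10 CPM in 3 libraries 5 of 6 tested were called. Scaling to general macrophage genes left 4 called: Chil3, Ear2, Ear6 and Siglecf, the last again without weight. Of all genes tested, 1.74% were called higher in that fit. Pparg at 0.39 (edgeR adjusted p = 0.416), Il18 at 0.74 (0.127) and Cidec at 1.73 (0.140) no longer passed. Marco was at -0.038 and Fabp4 at -0.026.

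The slopes rest on 2 residual degrees of freedom and moved more. DESeq2 called 2 identity genes rising in the common trend, 2 rising and 1 falling in suspension and 6 slope differences; no filter gave 2, 1 and 6 for the last 3 of these. Leaving out a library gave 0 to 1 rising in the common trend, 0 to 2 rising and 0 to 1 falling in suspension, 2 to 5 rising in adherent libraries and 0 to 6 slope differences. Without globin and mitochondrial genes no slope difference passed (0; adjusted p = 0.0585 for Pparg and 0.0532 for Il18). Scaled to general macrophage genes, 2 rose and 1 fell in suspension (0.262% and 2.27% of all genes), 2 rose and 2 fell in adherent libraries (0.932% and 69.3%) and 0 differences passed (50.4% positive and 1.24% negative). The cause of these shifts was not tested.

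Signs turned only in values that had not passed, apart from Fabp4 in the fraction contrast. With a library left out, the common trend of Siglecf ranged from -0.39 to 0.18. Suspension slopes ranged from -0.79 to 0.12 for Siglecf, -0.19 to 0.090 for Pparg and -0.18 to 0.27 for Fabp4. Adherent slopes ranged from -1.38 to 2.31 for Siglecf, -1.09 to 0.96 for Ear2 and -3.66 to 1.23 for Ear6. Slope differences ranged from -2.62 to 1.07 for Siglecf, -2.23 to 2.65 for Ear6 and -0.73 to 3.91 for Cidec. Scaled to general macrophage genes, the adherent slope of Siglecf was -0.45 and the differences were 0.17 for Siglecf, 0.093 for Chil3, 0.016 for Fabp4 and 0.39 for Ear6, where the median difference of all genes was 0.70.

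In ratios to general macrophage genes, 4 to 6 identity genes lay apart and higher, and 0 to 1 lower, with a library left out. Siglecf was always among the higher, as was Cidec without the adherent library of day 4, and both carry no weight, as above. Beside neutrophil genes 0 were higher and 4 lower. Over all genes, DESeq2 called 4.96% rising and 4.95% falling in the common trend and 5.53% of slope differences negative, the test against a 2-fold difference called 8.77% higher and 16.4% lower, and 1.42 to 12.5% rose in adherent libraries with a library left out. Low counts limit Siglecf, Ear6, Cidec and Krt79.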
